A study of Mus musculus with 8 samples.

Results

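The miRNAs described here are the mouse mature miRNAs whose registry number is 5000 or higher, such as miR-5099 or miR-12184-3p, and that were above 0 CPM (reads scaled to a common library total) in at least 4 of 8 small RNA libraries. There were 221 of them, out of 465 listed IDs with such a number and 1396 listed miRNAs in all. They were chosen by their number and by detection in these same libraries, so their detection and level are given as a description, beside the 791 IDs numbered under 5000, let-7 included, that met the same detection limit. The study profiled small RNA of C57BL/6 spinal cord, left side, with 4 bone cancer pain libraries and 4 sham libraries. For bone cancer pain, cells of the mouse lung cancer line LL/2 had been transplanted into the intramedullary space of the left femur. Sham mice had received normal saline there instead. Strain and tissue were the same in both groups, and no age, sex or time after surgery is given. Because no label ties each library to an animal of its own, a p-value here measures how far these samples vary, which can be technical variation.

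A miRNA is a short RNA, cut from one arm (5p or 3p) of a hairpin, that guides Argonaute proteins to messenger RNAs. Pairing is led by the seed, bases 2 to 8 from the 5′ end, so miRNAs with the same seed can share targets. Registry numbers are given in order of registration. The early numbers went to miRNAs that were abundant or conserved enough for cloning and early screens, and the later ones mostly to products found by deep sequencing. Many of the later entries are mirtrons, hairpins formed by a short spliced intron, whose 3p arm ends at the intron's 3′ end and which reach Dicer without cleavage by Drosha.

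RefSeq (GRCm38.p6) held a mature sequence for 196 of the 221 names, and the sequences below are taken from it, written 5′ to 3′ with the seed in capitals. The first set holds the most abundant late-numbered miRNAs with a RefSeq sequence that lie in or at protein-coding genes.
miR-5129-3p: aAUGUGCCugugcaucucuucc
miR-12184-3p: aCAGACGGgcucucaugcuga
miR-12184-5p: cUUGCAUGugggccugugugcu
miR-8103: uCUCCUGUucucuguucuccc
miR-8114: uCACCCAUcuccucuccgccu
miR-6896-5p: uUUGUAGGcgacgagaacccgu
miR-12194-3p: uCUGUGGGucuguuuguccguc
The gene annotation places miR-5129-3p at chr2:45023110-45023131 (minus strand), in an intron of Zeb2, a transcription factor of neural crest and glial development. The arms of miR-12184 lie at chr13:24980094-24980114 (plus strand) and chr13:24980056-24980077 (plus strand), in an intron of Gpld1, a phospholipase that cleaves GPI anchors. miR-8103 lies at chr11:97063829-97063849 (plus strand) in an intron of Osbpl7, which encodes an oxysterol-binding-like protein. miR-8114 lies at chr1:153899989-153900009 (plus strand) in the 5′ UTR of Glul, the glutamine synthetase of astrocytes. miR-6896-5p at chr1:34117364-34117385 (plus strand) and miR-12194-3p at chr3:55887284-55887305 (minus strand) lie in introns of Dst, a cytoskeletal linker, and of Nbea, a protein of synaptic membrane traffic.

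The second set holds the 5 most abundant 3p arms that end at the 3′ end of an intron and are intronic in every annotated transcript, and here the closing AG, the dinucleotide that ends most introns, is in capitals as well.
miR-7043-3p: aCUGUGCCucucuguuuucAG
miR-7226-3p: uGACACAGccauucucugagcAG
miR-6911-3p: uCAAUCACacucuguccacAG
miR-6944-3p: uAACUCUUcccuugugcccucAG
miR-6899-3p: uUGUCCUUcugugucuucugcAG
Their host genes are Rassf4 for miR-7043-3p at chr6:116645978-116645998 (minus strand), Ptprf for miR-7226-3p at chr4:118210505-118210527 (minus strand), Dazap1 for miR-6911-3p at chr10:80278212-80278232 (plus strand), Dbn1 for miR-6944-3p at chr13:55477681-55477703 (minus strand) and Klf7 for miR-6899-3p at chr1:64042438-64042460 (minus strand). Ptprf encodes a receptor tyrosine phosphatase of axons and synapses, Dbn1 the actin-binding protein drebrin of dendritic spines, and Klf7 a transcription factor of neurons.

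The third set holds miRNAs outside the intron-end set that are described below for their spread between libraries, their difference between groups, or a match to another small RNA.
miR-6240: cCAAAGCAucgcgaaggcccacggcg
miR-6538: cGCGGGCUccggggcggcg
miR-5126: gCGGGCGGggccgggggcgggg
miR-6239: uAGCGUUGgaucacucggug
miR-6238: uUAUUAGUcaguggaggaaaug
miR-5100: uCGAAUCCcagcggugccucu
miR-6481: cACUGAAAaugcuuagaug
miR-6516-5p: uUUGCAGUaacagguguggaca
miR-5121: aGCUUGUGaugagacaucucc
miR-6240 lies at chr5:114851973-114851998 (plus strand), miR-5126 at chr1:84695890-84695911 (plus strand), miR-6239 at chr14:117953768-117953787 (minus strand), miR-6238 at chr7:53891796-53891817 (minus strand) and miR-6481 at chr3:99199367-99199385 (minus strand), none of them inside an annotated gene on its strand. miR-6538 lies at chr12:26414970-26414988 (minus strand) in an intron of Rnf144a, a ubiquitin ligase, and miR-5100 at chr11:60728698-60728718 (plus strand) in an intron of Mief2, a factor of mitochondrial division. miR-6516-5p lies at chr11:117077370-117077391 (plus strand) in Snhg20, a small RNA host gene, and miR-5121 at chr7:45126925-45126945 (minus strand) in Rpl13a, a ribosomal protein gene that carries box C/D small nucleolar RNAs in its introns.

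Few seeds were shared with listed miRNAs numbered under 1000, let-7 included, that had a RefSeq sequence. Numbers 1000 to under 5000 were not compared, and no such share was taken over lower-numbered miRNAs as a background. Of the 196 sequences, 10 had the seed of an ID under 1000, and only the 2 with the highest level reached 1 CPM. The following pair of established miRNAs shows the shared seed in capitals.
miR-455-5p: uAUGUGCCuuuggacuacaucg
miR-330-3p: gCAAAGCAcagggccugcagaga
miR-5129-3p, with the seed AUGUGCC, averaged 20.2 CPM, against 63.6 CPM for miR-455-5p, which lies at chr4:63256867-63256888 (plus strand). miR-6240, with the seed CAAAGCA, averaged 9.98 CPM, against 250.3 CPM for miR-330-3p, which lies at chr7:19181525-19181547 (plus strand). The other 8 late-numbered miRNAs with a shared seed averaged between 0.0438 and 0.229 CPM. Among the late-numbered miRNAs themselves only 2 seeds occurred more than once, in 4 names: AGGGAGG in miR-6967-5p and miR-7016-5p, which miR-149-3p also carries, and GUGGGAG in miR-7008-5p and miR-6922-5p.

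The libraries held between 7686762 and 13498956 reads by the value of 1 read in each, of which 5220739 to 9260169 fell on listed miRNAs. A total of 3 reads, the limit that a count of 0 allows, was worth 0.222 to 0.390 CPM. Such limits and the counting errors below cover read counting only, since no molecular identifiers are described. The 5 spinal cord and neural miRNAs used as tissue markers, miR-9-5p, miR-124-3p, miR-219a-2-3p, miR-338-3p and miR-10b-5p, were present in every library and summed to 176414 to 217254 CPM in bone cancer pain and 197870 to 222950 CPM in sham. The 7 striated muscle miRNAs summed to 6065 to 16944 CPM in bone cancer pain and 5377 to 29299 CPM in sham, with up to 2 of the 7 at 0 in a library, and were highest in sham 1 with 29299 CPM, sham 2 with 24007 CPM and bone cancer pain 4 with 16944 CPM. The 5 erythroid miRNAs summed to 2168 to 3627 CPM in bone cancer pain and 1051 to 4781 CPM in sham, and the 4 leukocyte miRNAs to 310.8 to 366.5 CPM in bone cancer pain and 284.0 to 310.9 CPM in sham.

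Late-numbered miRNAs were found in fewer libraries than lower-numbered ones. Of the 465 listed IDs numbered 5000 and above, 221 (47.5%) were above 0 CPM in at least 4 libraries, against 791 of 931 (84.96%) of those under 5000. The share was 79.2% for numbers 1000 to under 5000, 81.8% for 500 to under 1000 and 87.9% under 500. Presence in all 8 libraries was reached by 87 of the 465 (18.7%), against 682 of the 931 (73.3%). As few as 1 library held 120 of the late-numbered IDs, 2 libraries held 63 and 3 libraries held 61. Every listed ID of either class was above 0 CPM in at least 1 library. These shares are therefore of listed IDs and not of all registered miRNAs. Just inside the detection limit stood miR-6967-5p with a mean of 0.0438 CPM and miR-7047-5p and miR-6965-3p with 0.0463 CPM each, and each of the 3 rested on 4 reads in all. Just outside it, with 3 libraries, stood miR-5617-3p with 0.0925 CPM from 7 reads, miR-8094 with 0.0838 CPM from 7 reads and miR-6942-5p with 0.0763 CPM from 6 reads, so these IDs just outside had higher means than those just inside.

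Their levels were low as well. The median over the 221 was 0.198 CPM (interquartile range 0.106 to 0.586), against 6.69 CPM over the 791 lower-numbered miRNAs, and the medians by class were 0.637 CPM for numbers 1000 to under 5000, 3.74 CPM for 500 to under 1000 and 18.4 CPM under 500. A mean of at least 1 CPM was reached by 40 of 221 (18.1%), against 564 of 791 (71.3%). At least 10 CPM was reached by 5 (2.26%), against 351 (44.4%), and at least 100 CPM by 1, against 183. All 221 together made up 0.0577% of the CPM on listed miRNAs. In reads, the median late-numbered miRNA had 17 over the 8 libraries together, against 565 for the lower-numbered ones. In no library did 41 of the 221 reach 3 reads, and 52 had at least 3 reads in all 8. For most of the 221, a difference between single libraries therefore rests on few reads. Within the set the CPM was concentrated: miR-5099 alone held 40.1%, the 5 most abundant 57.3% and the 40 with at least 1 CPM 89.4%.

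**Figure D1:**
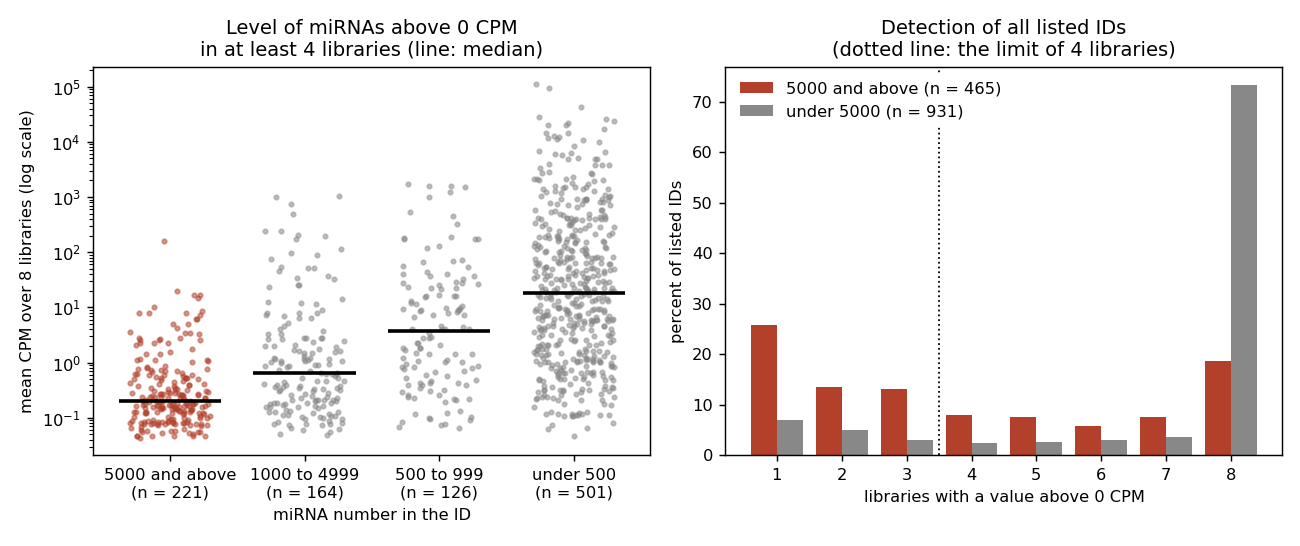
Left, mean CPM over 8 libraries on a log scale for each miRNA above 0 CPM in at least 4 libraries, by the number in its ID, with the class median as a line: the medians are 0.198 CPM at 5000 and above, 0.637 CPM at 1000 to under 5000, 3.74 CPM at 500 to under 1000 and 18.4 CPM under 500. Right, percent of all listed IDs found in 1 to 8 libraries, for 465 IDs numbered 5000 and above and 931 under 5000: 18.7% of the late-numbered IDs are present in all 8, against 73.3% of the others.

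The most abundant late-numbered miRNA was miR-5099, which had 158.4, 144.3, 163.3 and 141.2 CPM in bone cancer pain 1 to 4 and 167.7, 148.5, 118.2 and 229.4 CPM in sham 1 to 4. Sham 4 was the highest and sham 3 the lowest, and the bone cancer pain values lay between them. In bulk tissue, fewer cells of a type and less RNA per cell cannot be told apart, here and in every value below. The coefficient of variation of miR-5099 (CV, the SD over the 8 libraries divided by the mean of 158.8 CPM) was 20.4%, against 20.5% for miR-29b-3p, the lower-numbered miRNA nearest to it in level, with a mean of 157.9 CPM. In miR-29b-3p bone cancer pain 3 was highest with 231.6 CPM.

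miR-5129-3p was the steadiest of the 40 late-numbered miRNAs with at least 1 CPM. It had 18.5, 20.9, 19.7 and 21.5 CPM in bone cancer pain and 17.1, 21.4, 20.5 and 22.0 CPM in sham. All 8 values stood close together and the groups overlapped, and its CV of 8.34% was little above the 6.95% that counting its reads gives by itself. miR-142a-3p, a leukocyte miRNA and the nearest to it in level among the lower-numbered ones, averaged 20.1 CPM with a CV of 30.4%. The opposite arm, miR-5129-5p, averaged 0.156 CPM and was present in 6 libraries.

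miR-12184-3p had 16.6, 16.1, 17.8 and 13.9 CPM in bone cancer pain and 18, 17.4, 13.8 and 20.6 CPM in sham. Its lowest values, in sham 3 and bone cancer pain 4, and its highest, in sham 4, fell in both groups, which overlapped. miR-8103 had 15.1, 17.0, 17.0 and 12.2 CPM in bone cancer pain and 13.5, 17.3, 19.9 and 21.5 CPM in sham. miR-6540-5p had 12.03, 13.4, 16.7 and 14.6 CPM in bone cancer pain and 16.9, 14.0, 11.8 and 17.3 CPM in sham. Both again had overlapping groups and sham 4 as the highest library. miR-155-5p, an inflammation-linked miRNA that stands nearest to miR-12184-3p in level, averaged 16.7 CPM with a CV of 26.1%.

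miR-8114, in the 5′ UTR of Glul, had 7.49, 7.90, 10.03 and 8.85 CPM in bone cancer pain and 7.60, 7.19, 7.77 and 10.67 CPM in sham. miR-6896-5p, in the Dst intron, had 9.45, 8.07, 9.03 and 5.14 CPM in bone cancer pain and 6.35, 7.33, 6.82 and 11.58 CPM in sham. In both the groups overlapped and sham 4 was highest, and miR-6896-5p was lowest in bone cancer pain 4. miR-5621-3p, in an intron of Tmem94, had 2.58, 2.80, 2.71 and 2.39 CPM in bone cancer pain and 3.43, 2.82, 2.30 and 2.60 CPM in sham. Its CV of 12.8% was the next lowest after that of miR-5129-3p among the 40, and sham 1 was its highest library.

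Arm use was uneven in most hairpins that reached 1 CPM. Of 135 late-numbered hairpins with both arms listed, both arms met the detection limit in 28, with the 3p arm higher in 15 and the 5p arm in 13, and 1 arm alone met it in 65, the 3p arm in 36 of them. The higher arm was the higher in all 8 libraries for miR-12184 (5p 7.99 and 3p 16.8 CPM), miR-5129 (5p 0.156 and 3p 20.2 CPM), miR-6540 (5p 14.6 and 3p 0.721 CPM), miR-6516 (5p 6.13 and 3p 0.598 CPM), miR-6948 (5p 0.513 and 3p 1.09 CPM), miR-6966 (5p 0.129 and 3p 1.58 CPM), miR-6994 (5p 0.0825 and 3p 1.13 CPM), miR-7015 (5p 0.144 and 3p 1.11 CPM) and miR-7047 (5p 0.0463 and 3p 2.24 CPM). These are all the late-numbered hairpins with both arms past the detection limit and at least 1 arm at 1 CPM. miR-7043-3p, with 5.09 CPM, had a partner arm outside the 221, miR-7043-5p, at 0.0125 CPM.

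Most late-numbered 3p arms lay at the end of an intron. Of the 93 3p arms with a RefSeq position, 66 (71.0%) ended within 2 bases of the 3′ end of an annotated intron on the same strand, against 19 of 316 (6.01%) of the lower-numbered 3p arms. The share was 27.4% for numbers 1000 to under 5000 (17 of 62), 4.35% for 500 to under 1000 (2 of 46) and 0 of 208 under 500. The last 2 bases were AG in 51 of the 93 (54.8%), against 27 of 316 (8.54%). At the other end, 1 of 76 late-numbered 5p arms began at an intron's 5′ end. Taking every arm, 138 of 196 (70.4%) lay wholly in introns, against 47.8% of the lower-numbered ones, and 88.8% had a protein-coding host gene, against 45.2%. These shares count names, and both arms of a hairpin share a position, so they are given without a test.

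**Figure D2:**
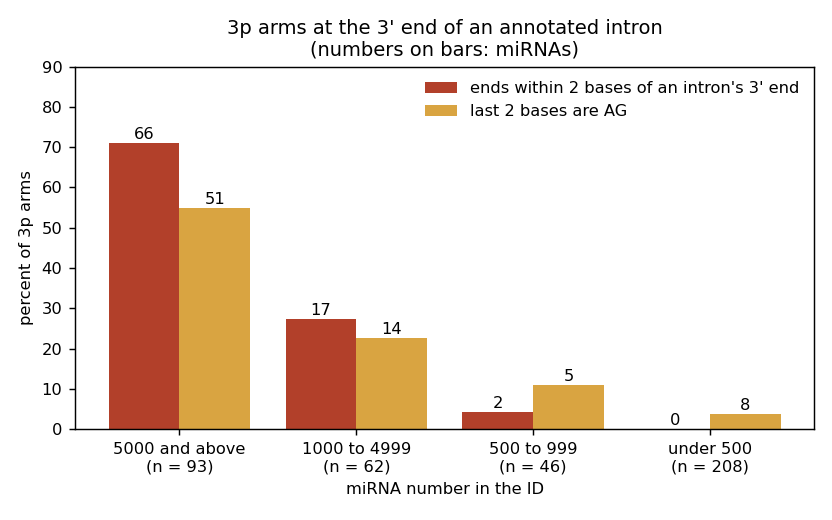
Percent of 3p arms, by the number in the miRNA's ID, that end within 2 bases of the 3′ end of an annotated intron (red) and whose last 2 bases are AG (yellow), with the number of miRNAs on each bar. The intron-end share is 71.0% at 5000 and above, 27.4% at 1000 to under 5000 and 4.35% at 500 to under 1000, and 0 of 208 under 500.

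Intron-end miRNAs had a median level close to that of the other late-numbered ones. The 67 at an intron end, the 66 3p arms and 1 5p arm, had a median of 0.201 CPM, 13 of them reached 1 CPM and the highest had 5.09 CPM. The 129 others with a sequence had a median of 0.204 CPM, 23 of them reached 1 CPM and the highest had 20.2 CPM. Among those with at least 1 CPM, the median CV was 22.5% over the 13 at an intron end and 25.4% over the 23 others. miR-7043-3p, the most abundant at an intron end, had 4.54, 4.78, 6.12 and 4.52 CPM in bone cancer pain and 4.79, 6.67, 5.15 and 4.16 CPM in sham. miR-7226-3p had 4.05, 4.03, 3.41 and 3.72 CPM in bone cancer pain and 3.23, 2.67, 3.25 and 4.29 CPM in sham. In both the groups overlapped, and sham 4 was the lowest library of miR-7043-3p and the highest of miR-7226-3p.

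Sequence composition differed too. Median GC content was 54.5% over the 196 late-numbered sequences and 47.8% over 653 lower-numbered ones, while the median length was 22 bases in both. The first base was U in 105 of 196 (53.6%), against 38.9%. Over the 36 with at least 1 CPM and a sequence, GC content and CV had a Spearman correlation of -0.033, and GC content and the chi-square of the reads per degree of freedom, a spread set against counting error, had one of 0.13. Split at 60% GC, the median CV was 36.9% over the 8 above or at it and 22.7% over the 28 below, with median chi-squares of 4.55 and 1.94. These are descriptions over miRNAs that share the same 8 libraries. The highest GC contents among these 36 were those of miR-5126, whose 22 bases are all G or C, and miR-6538, with 94.7%.

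Of the 196 sequences, 4 also occur, base for base, inside an annotated small RNA of another class. Such matches are not particular to late-numbered miRNAs. Lower-numbered ones have them too, among them miR-1843a-5p with 1034.5 CPM and miR-664-3p with 71.7 CPM. miR-6481 equals bases 29 to 47 of the 68-base mt-Tf, the mitochondrial transfer RNA for phenylalanine. miR-5121 equals bases 3 to 23 of the 84-base Snord33, a box C/D small nucleolar RNA, which guides methylation of ribosomal RNA. miR-6516-5p and miR-6516-3p equal bases 128 to 149 and 170 to 191 of the 193-base Gm26083, annotated as a small Cajal body RNA. By position, miR-5121 overlaps the Snord33 gene and both miR-6516 arms overlap Gm26083, so those matches are at the same locus. miR-6481, on chr3, overlaps no annotated small RNA gene. A read of those letters carries no mark of which transcript it came from. The search by sequence covered the small RNA genes of the GENCODE M21 annotation only. RefSeq small RNA genes, transfer RNA genes among them, were compared by position and not by sequence. The long ribosomal RNA precursor was not searched here, so the 4 may not be all such matches.

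miR-6481 was the least steady of the 40. It had 11.05, 0.25, 10.13 and 0.35 CPM in bone cancer pain and 1.14, 0.52, 0.32 and 3.77 CPM in sham. Bone cancer pain 1 and 3 stood far above the other 6 libraries, while bone cancer pain 2 and 4 were among the lowest, so the groups overlapped and the CV was 133%, where counting gives 16.8%. Its log2 fold change of CPM + 1 was 0.87 (95% interval -0.83 to 2.56), which became 0.32 when bone cancer pain 1 was left out and 0.36 when bone cancer pain 3 was, and 1.41 and 1.37 when the low libraries 2 and 4 were. On recovered reads edgeR gave 2.06 (unadjusted p = 0.10, adjusted p = 0.702). miR-5121 had 0.37, 0.25, 0.40 and 0.53 CPM in bone cancer pain and 0.62, 0.74, 0.79 and 0.52 CPM in sham, with bone cancer pain 4 just above sham 4.

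miR-6240 had 10.2, 5.60, 10.6 and 4.25 CPM in bone cancer pain and 9.57, 13.3, 5.15 and 21.1 CPM in sham. miR-6538 had 7, 5.52, 8.32 and 3.19 CPM in bone cancer pain and 4.37, 9.04, 4.36 and 15.5 CPM in sham. miR-5100 had 4.67, 3.05, 5.22 and 3.19 CPM in bone cancer pain and 2.29, 5.11, 2.46 and 8.46 CPM in sham. In all 3 sham 4 was the highest library and the groups overlapped, and bone cancer pain 3 was the highest of its own group. The CV of miR-6240 was 55.0%, where counting gives 9.90%. Its log2 fold change was -0.55 (95% interval -1.40 to 0.30), and it was -0.25 without sham 4, -0.33 without bone cancer pain 4 and -0.87 without sham 3. miR-5126 had 2.58, 0.74, 4.01 and 1.68 CPM in bone cancer pain and 1.77, 1.93, 1.03 and 4.16 CPM in sham, with sham 4 and bone cancer pain 3 again the highest of their groups. miR-6238 had 2.46, 0.25, 1.81 and 0.62 CPM in bone cancer pain and 1.04, 2.22, 0.79 and 2.08 CPM in sham. Bone cancer pain 1 and 3 and sham 2 and 4 were its highest libraries, as they were for miR-6240 in another order, and the groups overlapped. miR-7093-3p, a 3p arm at an intron end of Armcx3, had 0.61, 0.58, 2.11 and 1.06 CPM in bone cancer pain and 1.14, 1.26, 1.58 and 3.25 CPM in sham, with bone cancer pain 3 and sham 4 the highest of their groups and a CV of 60.8%.

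**Figure D3:**
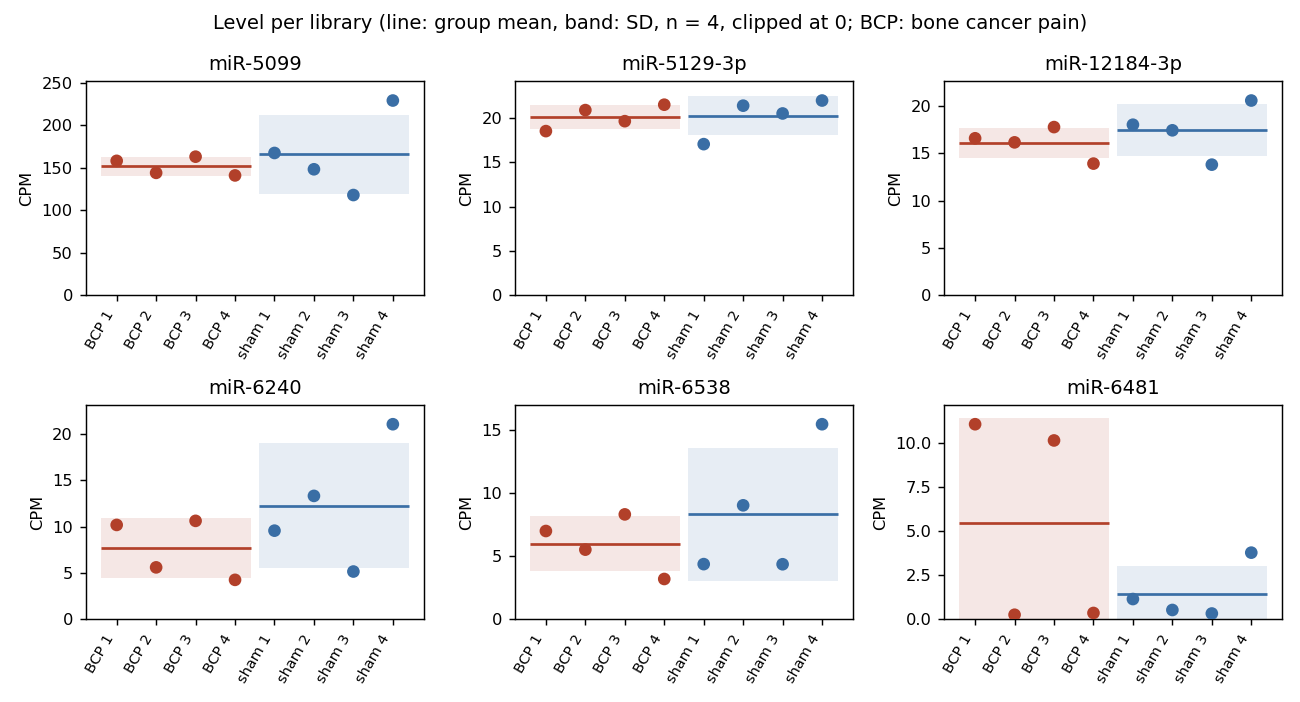
CPM of 6 late-numbered miRNAs in each library, bone cancer pain (BCP, red) 1 to 4 left of sham (blue) 1 to 4, with the group mean as a line and 1 SD as a band (n = 4, clipped at 0). miR-5129-3p stays between 17.1 and 22.0 CPM, while miR-6481 is above 10 CPM in bone cancer pain 1 and 3 and at most 3.77 CPM elsewhere. Sham 4 is the highest library in miR-5099, miR-12184-3p, miR-6240 and miR-6538, and by a small margin in miR-5129-3p.

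Within ranges of level, late-numbered miRNAs had a median CV between libraries, counting error included, close to that of lower-numbered ones up to 10 CPM. With a mean under 0.3 CPM the median CV was 100% over 139 late-numbered miRNAs and 94.9% over 116 lower-numbered ones, where counting gives 86.7% at the level of those 139. From 0.3 to 1 CPM it was 52.1% (42 miRNAs) against 49.3% (111), with 43.0% from counting. From 1 to 3 CPM it was 31.0% (20) against 30.6% (106), with 22.7% from counting. From 3 to 10 CPM it was 21.6% (15) against 23.3% (107), with 12.6% from counting. The ratio of the medians, late-numbered over lower-numbered, was 1.06 from 0.3 to 1 CPM, 1.01 from 1 to 3 CPM and 0.927 from 3 to 10 CPM, with errors of 0.0675, 0.156 and 0.146 from leaving out each library in turn, so none of these 3 ratios differed from 1 by more than its error. From 10 to 30 CPM the ratio was 0.692 (error 0.114), but it rests on 4 late-numbered miRNAs, whose median CV was 14.1% against 20.3% over 84. Under 3 CPM counting makes up much of the CV, so close medians there are partly set by level. With the counting part removed, the median CV was 19.6% against 18.3% from 1 to 3 CPM and 13.8% against 18.8% from 3 to 10 CPM. The chi-square per degree of freedom was over 2 for 50% against 30.2% from 1 to 3 CPM. From 3 to 10 CPM it was over 2 for 53.3% against 71.0%.

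The order of levels was kept from library to library as well. Over the 40 with at least 1 CPM, the Spearman correlation of CPM between libraries had a median of 0.889 over the 28 pairs of libraries (0.782 to 0.941). Over 267 lower-numbered miRNAs between 1 CPM and the level of the second most abundant late-numbered one, it had a median of 0.901 (0.841 to 0.957). These are correlations across miRNAs of shared libraries, given as a description.

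**Figure D4:**
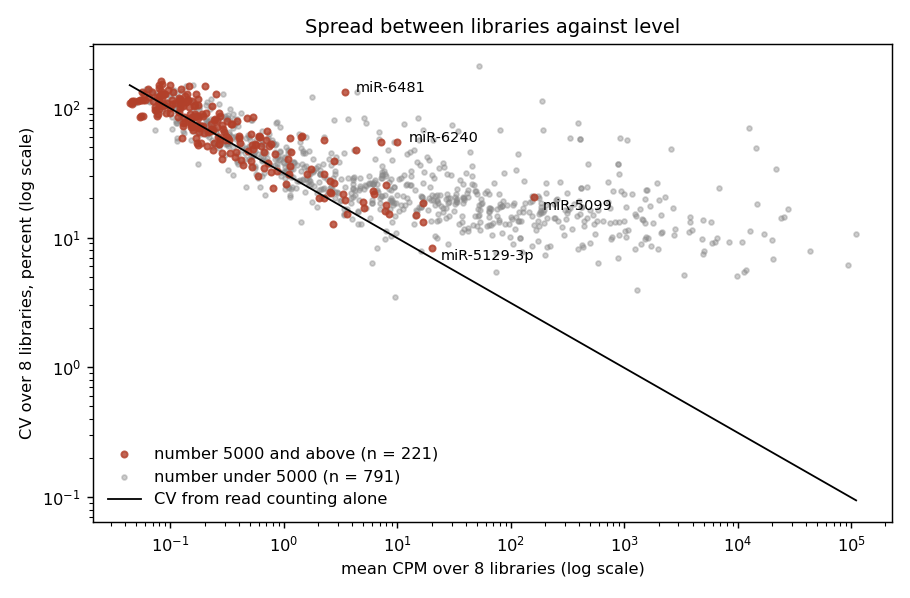
CV over the 8 libraries in percent against mean CPM, both on log scales, for 221 miRNAs numbered 5000 and above (red) and 791 under 5000 (grey), with the CV that read counting alone gives as a line. Most late-numbered miRNAs sit at low levels near the counting line among the grey points. miR-6481 (133%) and miR-6240 (55.0%) lie far above the line and miR-5129-3p (8.34%) close to it.

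The summed level of the 221 was highest in sham 4. It was 397.7, 359.6, 423.4 and 343.6 CPM in bone cancer pain and 381.9, 387.8, 329.7 and 547.4 CPM in sham, and without miR-5099 it was 239.3, 215.3, 260.1 and 202.4 CPM in bone cancer pain and 214.2, 239.3, 211.6 and 318.0 CPM in sham. The groups overlapped in both sums. Of the 40 miRNAs with at least 1 CPM, 26 (65.0%) had their highest value in sham 4, against 225 of 564 (39.9%) lower-numbered ones. Between 1 and 30 CPM the counts were 25 of 39 (64.1%) against 111 of 297 (37.4%), and the median value in sham 4 was 1.32 times the miRNA's mean over all libraries, against 1.19 times. Sham 4 was also the library with the fewest reads, 7686762, and the lowest erythroid sum, 1051 CPM, and its reads outside the listed miRNAs came to 320815 CPM, within the 298092 to 330748 CPM of the 8 libraries. Their part in the result was not tested.

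The comparison the design is built for, bone cancer pain against sham, called no late-numbered miRNA. The 40 that averaged 1 CPM or more entered a limma fit of log2(CPM + 1) over all 605 miRNAs at that level. At an adjusted p of 0.05, 0 of the 40 were called, with a background of 0% over the 605, and the smallest adjusted p was 0.887. edgeR and DESeq2 on recovered reads also called 0 of 40 and 0% of the 605. At an unadjusted p of 0.05 limma had 2 of the 40, both lower in bone cancer pain, against a background of 1.82% lower and 2.81% higher (4.63% in all), so the share among the 40 was near the background. edgeR likewise had 2 of 40 (background 7.11%) and DESeq2 2 of 40 (background 5.12%).

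miR-6239 had 2.33, 2.14, 2.11 and 1.86 CPM in bone cancer pain and 3.33, 3.26, 2.14 and 5.07 CPM in sham. Sham 3 lay among the bone cancer pain values and the other 3 sham libraries above them. Its mean was 2.11 ± 0.193 CPM in bone cancer pain and 3.45 ± 1.21 CPM in sham (SD, n = 4 each), with a log2 fold change of -0.48 (95% interval -0.92 to -0.04, limma unadjusted p = 0.0349, adjusted p = 0.887), and it was -0.32 without sham 4. miR-7224-3p had 0.61, 0.99, 1 and 0.35 CPM in bone cancer pain and 0.83, 1.11, 2.46 and 1.69 CPM in sham. Sham 1 lay among the bone cancer pain values. Its log2 fold change was -0.51 (95% interval -1.01 to -0.02, limma unadjusted p = 0.0430, adjusted p = 0.887), and it was -0.35 without sham 3 and -0.83 without sham 1 and sham 2, the libraries highest in striated muscle miRNAs; the part of muscle RNA in it was not tested.

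Over the 40, 11 log2 fold changes were above 0 and 29 below, while 48.3% of the 605 were above 0. The median was -0.08, against -0.0070 over the 605. Without sham 4 the split was 20 above and 20 below, with a median of -0.0038 against 0.05 over the 605, and without sham 3 it was 8 above and 32 below. A 95% interval inside 2-fold of CPM + 1 either way was found for 35 of the 40, as for 91.7% of the 605. That scale is wider in CPM for miRNAs near 1 CPM, and the count was 32 of 40 (88.9% of the 605) with a pseudocount of 0.5 CPM and 28 of 40 (83.3% of the 605) with 0.1 CPM. For miR-5129-3p the difference was -0.0023 on the log2 scale, with 95% bounds of -0.31 and 0.31. The groups of 4 did not overlap in 0 of the 40, where 1.98% of the 605 were wholly higher and 1.65% wholly lower in bone cancer pain. After 0.87 for miR-6481 the highest values among the 40 were 0.27 for miR-6948-3p, 0.21 for miR-6994-3p and 0.15 for miR-7226-3p, and after miR-6240, miR-7224-3p and miR-6239 the lowest was -0.43 for miR-7093-3p, and none passed. Single libraries moved the values of miR-6948-3p, miR-6994-3p, miR-7226-3p and miR-7093-3p by over 1.5 times each. miR-6948-3p was at 0.10 and miR-7226-3p at 0.071 without sham 2, and miR-7226-3p was at 0.25 without sham 4. miR-6994-3p was at 0.045 without sham 4 and 0.10 without bone cancer pain 2, and miR-7093-3p was at -0.21 without sham 4.

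**Figure D5:**
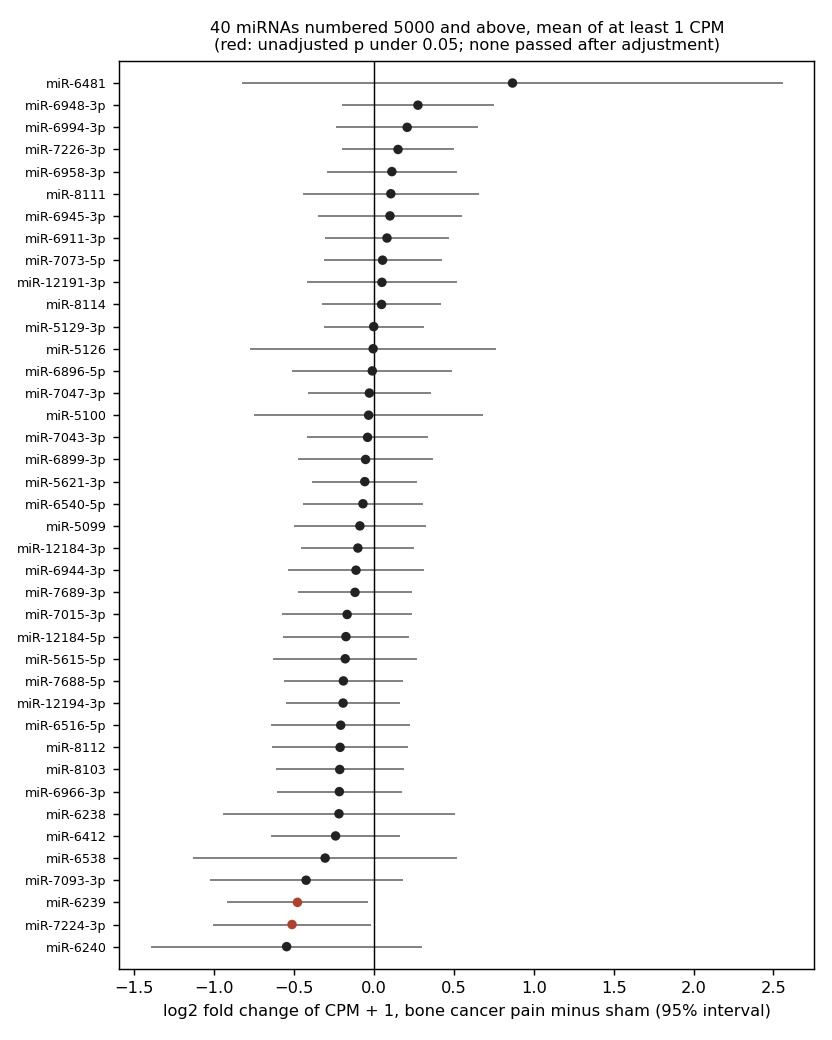
Log2 fold change of CPM + 1, bone cancer pain minus sham, with its 95% interval from limma, for the 40 late-numbered miRNAs that averaged 1 CPM or more, in order of fold change. 11 lie above 0 and 29 below, miR-6481 has the widest interval (-0.83 to 2.56), and the 2 in red, miR-6239 and miR-7224-3p, had an unadjusted p under 0.05 and an adjusted p of 0.887.

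The other 181 fell under 1 CPM. When the fit was opened to every miRNA above 0 CPM in at least 4 libraries, 1012 with all 221 among them, limma called 0 at an adjusted p of 0.05 and so did edgeR (background 0% for both). At an unadjusted p of 0.05 limma had 6 higher and 8 lower in bone cancer pain, against a background of 2.87% higher and 2.17% lower, and edgeR had 3 higher and 5 lower, against 2.87% higher and 2.96% lower. The groups did not overlap for 2 higher ones, miR-7061-5p and miR-7118-3p, with a background of 1.78%, and for 5 lower ones, miR-7656-5p, miR-5125, miR-6909-5p, miR-6966-5p and miR-6907-3p, with a background of 1.68%. miR-7656-5p, the most abundant of these, had 0, 0.33, 0.30 and 0 CPM in bone cancer pain and 0.62, 0.37, 0.71 and 0.39 CPM in sham, 30 reads in all. miR-7061-5p had 0.12, 0.16, 0.10 and 0.18 CPM, 6 reads in all, in bone cancer pain and 0 CPM in every sham library. It met the detection limit through the bone cancer pain libraries alone, so its groups had to differ. Both fits counted it among those higher at an unadjusted p of 0.05. Each of these 7 names was present in all 4 libraries of its higher group, which alone meets the limit. Their separation is therefore a description and no support for a difference. The 7 were taken from their values, and those other than miR-7656-5p rested on 5 to 15 reads each.

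Detection itself was spread over both groups. Of the 221, 50 were present in more bone cancer pain than sham libraries, 54 in more sham than bone cancer pain libraries and 117 in equally many. A gap of 3 or more libraries was found for 5 in favour of bone cancer pain, miR-6913-3p, miR-6959-3p, miR-7061-5p, miR-7118-3p and miR-7220-3p, and for 4 in favour of sham, miR-6907-3p, miR-6962-3p, miR-6990-5p and miR-7049-5p. Each of these names was present in all 4 libraries of its higher group, which alone meets the detection limit. Detection by group was not counted over the lower-numbered miRNAs as a background. The counts and gaps are therefore a description and no support for a difference. The number of the 221 present was 165, 184, 186 and 175 in bone cancer pain and 165, 196, 180 and 175 in sham. The deepest library, sham 2, held the most, and the groups overlapped.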

How the data were processed

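Small RNA of left spinal cord was measured in 8 libraries, 4 labelled bone cancer pain and 4 labelled sham, grouped by their titles. The authors deposited 1 table of CPM values for 1396 mature miRNAs, rounded to 2 decimals. Per the submitters' processing notes, the software was Bowtie, fastp, Salmon and STAR, without roles or versions, and the genome build was mm10. The labels' protocols describe rRNA removal, fragmentation and cDNA kits while the sample descriptions say small RNA, and how reads with several matching loci were counted is not given in the sources used here. A miRNA that shares its sequence with another RNA may therefore hold that RNA's reads. No column was left unmapped.

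The value of 1 read in each library was recovered from the steps between low CPM values. Between 99.8% and 100% of values above 0 were whole reads within 0.0051 CPM. Bone cancer pain 3 has a step of 0.10 CPM, close to a multiple of the table's rounding. The smallest steps were those of sham 2 (0.0741 CPM) and sham 3 (0.0792 CPM), and bone cancer pain 1 had the lowest share of whole values. Recovered reads are estimates in every library. Library reads and the 3-read limits follow from these steps.

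Groups were compared by limma (3.58.1, R 4.3.3) on log2(CPM + 1) with a mean-variance trend, over all miRNAs that averaged 1 CPM or more, two-sided, with Benjamini-Hochberg adjustment over all tested. Fold changes are on that scale and understate changes of low miRNAs. edgeR (4.0.16, quasi-likelihood) and DESeq2 (1.42.0) on the recovered reads were alternatives, and each called 0 miRNAs at an adjusted p of 0.05. Other pseudocounts, filters, scalings, variance models, a replicate block and leaving out libraries were tried. Only the limma fit was tested on simulated data, and edgeR and DESeq2 were not. Same-numbered libraries did not vary together, and whether replicate numbers mark matched animals is not given.

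The CV is the SD over 8 libraries divided by the mean, and the counting CV is that of Poisson reads. Sequences and positions came from RefSeq (GRCm38.p6) and gene structure from GENCODE M21. Members, lists and comparisons were chosen with earlier results of these data known. Most names were taken by rule: the 10 most abundant, up to 6 higher and 6 lower by smallest unadjusted p, the 5 highest and 5 lowest CVs at 1 CPM or more, hairpins with both arms listed, shared seeds, matches to small RNAs, and 3 IDs on each side of the detection limit. Names outside it were chosen after their values were seen: miR-6538, miR-5100, miR-7043-3p, miR-6911-3p, miR-6944-3p, miR-6899-3p, and those given for a repeated seed, for groups that do not overlap or for uneven detection.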

Additional observations from a re-analysis of the deposited data

Results flagged for a closer look

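miR-8114, which lies in the 5′ UTR of Glul, had 10.7 CPM in sham 4, apart from 7.60, 7.19 and 7.77 CPM in sham 1, 2 and 3. It was singled out by Dixon's ratio, the gap to the nearest value divided by the range of the 4 values. The ratio was 0.833 for sham 4, past the limit used for groups of 4. The miR-8114 sham group was the only one past that limit among the 56 groups of 4 examined over the named miRNAs. Chance singles out about 1 in 20 such groups.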

How the results depend on the processing

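The count of miRNAs past an adjusted p of 0.05, over all miRNAs and over the late-numbered ones, was 0 under every alternative run, with any 1 library left out (0 to 0) and with the replicate number as a block (0, smallest adjusted p 0.939). The correlations of same-numbered libraries, each taken as deviations from its group mean, were -0.055, -0.056, -0.011 and -0.31. Same-numbered libraries thus shared no deviation, which cannot show whether their animals or preparation were matched. The 221 became 98 with at least 3 reads in at least 4 libraries, 87 with detection in all 8, 465 with detection in any, 310 with numbers from 3000, and 195 to 207 with 1 library left out. The ratio of median CVs from 0.3 to 1 CPM was 0.985 with the CV taken within groups, and from 3 to 10 CPM it was 0.733 with the counting part removed; the cause was not tested. Leaving out each library in turn gave ratios of 1.03 to 1.12 from 0.3 to 1 CPM, 0.922 to 1.09 from 1 to 3 CPM, 0.846 to 1.04 from 3 to 10 CPM and 0.578 to 0.724 from 10 to 30 CPM. The sign of a log2 fold change turned for miR-6948-3p (-0.036) and miR-6958-3p (-0.011) without sham 1 and sham 2, and for miR-5099 with array weights (0.021). With 1 library left out, the range was -0.0060 to 0.23 for miR-6958-3p (below 0 without sham 1), -0.045 to 0.22 for miR-6945-3p (below 0 without bone cancer pain 3, and -0.018 without sham 3) and -0.24 to 0.080 for miR-5099 (above 0 without sham 4). Depth limits the 181 miRNAs under 1 CPM most, of which 41 never reached 3 reads in a library. A filter of a mean of 10 CPM kept 5 of the 40, so the other named miRNAs have no value under it.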
